A study of Homo sapiens with 9 samples.

Results

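Interferon-stimulated and RNA-sensing genes were examined as a group of 47 genes in Huh-7 cells that lacked a vault RNA. The 47 genes were named as a list of symbols, which included EIF2AK2, the gene of the kinase PKR, because vault RNA has been reported to act on PKR. Each symbol was matched to its Ensembl identifier in the deposited count table, and all 47 were among its 60664 genes. Of the 47 genes, 37 passed the filter on low counts and were among the 17207 genes tested, and the other 10 were too low to test. The levels and changes below are CPM, the counts of a library scaled to a common total with TMM factors, and log2 fold changes from edgeR's quasi-likelihood test, and a gene was called where its p-value, adjusted over all tested genes, was under 0.05.

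Huh-7 is an established line of human hepatocellular carcinoma cells, and the series holds mRNA-seq of 3 lines of it with 3 libraries each. WT cells carried no edit, 1-1 KO cells lacked VTRNA1-1, and 1-2 KO cells lacked VTRNA1-2. Both deletions were made with CRISPR/Cas9, the WT and 1-1 KO cells were a gift of another group, and a clone grown from 1 edited WT cell gave the 1-2 KO line. All cells were taken at 80% confluency in complete medium, with no interferon or virus named in the labels. Each knockout was 1 line, so the loss of a vault RNA and other differences between lines cannot be told apart, and the 3 libraries were 3 RNA extractions, so p-values measure the spread between libraries of 1 line.

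Cells detect foreign RNA with sensors such as RIG-I, MDA5, TLR3 and PKR. RIG-I, MDA5 and TLR3 signal through adaptors to the transcription factors IRF3 and IRF7 and so induce interferons, while PKR blocks translation. Secreted interferons bind their receptors and activate STAT proteins and IRF9, which switch on interferon-stimulated genes at a promoter element called the ISRE. Hepatocytes use these genes against hepatitis viruses, and Huh-7 cells are widely used to study them, although they are known to respond weakly to extracellular double-stranded RNA.

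The vault RNAs that the lines lack are short noncoding RNAs made by RNA polymerase III, and both lie on the plus strand of chromosome 5. They are shown because they define the lines. VTRNA1-1 is at chr5:140711275-140711373 and VTRNA1-2 at chr5:140718925-140719013 (GRCh38), with lengths of 99 and 89 bases. The first 30 and last 5 bases, in lower case, were the same in both genes, and the capitals mark the middle part in which they differ.
VTRNA1-1: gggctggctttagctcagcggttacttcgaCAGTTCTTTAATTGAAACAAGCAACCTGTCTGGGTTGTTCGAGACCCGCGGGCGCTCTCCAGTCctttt
VTRNA1-2: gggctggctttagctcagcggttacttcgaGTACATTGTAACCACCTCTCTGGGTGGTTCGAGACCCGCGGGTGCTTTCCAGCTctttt
The mRNA libraries held between 0 and 2 counts of each vault RNA gene, WT included, so the deletions could not be checked in these data.

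Total counts per library were between 32384469 and 41782387. Replicate 1 of 1-2 KO stood apart from the other libraries of its line. Its counts differed from theirs with chi-squares of 15.1 and 16.1 per degree of freedom, where those of the other pair differed with 2.67. In WT, replicate 3 differed from replicates 1 and 2 with 10.4 and 6.41, and replicates 1 and 2 differed with 5.03. The pairs of 1-1 KO differed with between 2.07 and 3.46. The 9 hepatocyte markers summed to between 15010 and 15960 CPM in WT, 31190 and 32130 CPM in 1-1 KO and 21200 and 23230 CPM in 1-2 KO, so the hepatocyte label held in each line. Of the 9, 8 were higher and none lower in 1-1 KO, and 4 were higher and 3 lower in 1-2 KO. Over all tested genes 32.5% were higher and 30.9% lower in 1-1 KO, and 28.2% and 26.2% in 1-2 KO. The 5 leukocyte markers summed to between 1.52 and 1.65 CPM in WT, 3.46 and 3.71 CPM in 1-1 KO and 2.62 and 3.18 CPM in 1-2 KO, the 2 that were tested rose in both knockouts, and CD68 and CD3E were at 3 counts or fewer in every WT library. The 4 fibroblast markers summed to between 32.4 and 33.1 CPM in WT, 76.3 and 86.7 CPM in 1-1 KO and 55.3 and 60.4 CPM in 1-2 KO, with DCN at 3 counts or fewer in WT. The 4 endothelial markers summed to between 7.39 and 8.04 CPM in WT, 6.40 and 7.22 CPM in 1-1 KO and 0.831 and 1.11 CPM in 1-2 KO, where PECAM1 fell (log2 fold change -3.17, edgeR adjusted p = 5.05e-11), and KDR had no count in any library. The part of these marker differences in the results below was not tested.

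Promoters of 36 of the 47 genes were found in a RefSeq table of 300-base windows (250 bases before to 50 after the gene's start, GRCh38.p14). The core of the ISRE, searched as GAAA, any 2 bases and GAAA again on both strands (TTTC, any 2 bases and TTTC on the reverse strand), was present in 19 of these 36 promoters, or 52.8%, where 3.57% of all 35116 promoters in the table held it. The core of the GAS element that binds STAT dimers, TTC and GAA with any 3 bases between them, was in 8 of the 36, or 22.2%, against 7.66% of all promoters. A match says only that these letters are in the window.

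The promoters of 4 genes are printed because they carry the element in more than 1 copy, while the genes behaved differently. IFIH1 rose in both knockouts, OAS3 rose by unequal amounts, ISG15 passed the test in neither, and IFIT5 fell in 1-1 KO. Capitals mark the ISRE cores, of which some overlap. They begin at -159, -153 and -21 from the start of IFIH1 (chr2:162318635-162318934, minus strand), at -143 and -12 of OAS3 (chr12:112938224-112938523, plus strand), at -113 and -107 of ISG15 (chr1:1013247-1013546, plus strand) and at -45, -19 and -4 of IFIT5 (chr10:89414318-89414617, plus strand).
IFIH1: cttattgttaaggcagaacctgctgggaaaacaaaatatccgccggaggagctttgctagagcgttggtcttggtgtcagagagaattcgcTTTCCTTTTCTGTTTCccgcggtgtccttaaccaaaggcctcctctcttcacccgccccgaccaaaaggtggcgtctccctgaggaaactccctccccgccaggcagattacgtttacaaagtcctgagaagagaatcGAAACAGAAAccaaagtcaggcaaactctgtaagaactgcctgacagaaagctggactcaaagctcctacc
OAS3: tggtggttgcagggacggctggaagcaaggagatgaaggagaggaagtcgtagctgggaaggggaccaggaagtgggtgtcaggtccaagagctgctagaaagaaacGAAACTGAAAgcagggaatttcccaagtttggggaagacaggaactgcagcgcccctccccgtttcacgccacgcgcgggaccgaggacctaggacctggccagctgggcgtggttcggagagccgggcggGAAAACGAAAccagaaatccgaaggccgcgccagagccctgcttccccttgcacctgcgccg
ISG15: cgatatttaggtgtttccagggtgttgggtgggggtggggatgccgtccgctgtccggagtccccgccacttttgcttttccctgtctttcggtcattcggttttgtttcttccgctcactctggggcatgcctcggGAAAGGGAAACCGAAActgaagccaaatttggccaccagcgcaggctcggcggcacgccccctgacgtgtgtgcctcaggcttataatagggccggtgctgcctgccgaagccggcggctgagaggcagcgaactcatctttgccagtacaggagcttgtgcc
IFIT5: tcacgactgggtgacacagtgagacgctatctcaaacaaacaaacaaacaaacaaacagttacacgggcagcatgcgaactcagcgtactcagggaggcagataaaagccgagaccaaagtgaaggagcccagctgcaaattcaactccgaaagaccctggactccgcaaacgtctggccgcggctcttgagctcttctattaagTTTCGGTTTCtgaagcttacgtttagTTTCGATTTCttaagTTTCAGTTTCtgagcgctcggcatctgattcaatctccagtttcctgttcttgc

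Among the 19 genes with an ISRE core, 15 were tested. Against WT, 1-1 KO had 8 of these 15 higher and 1 lower with 6 not called, while 1-2 KO had 11 higher and 1 lower with 3 not called. Over all tested genes 32.5% were higher and 30.9% lower in 1-1 KO, and 28.2% and 26.2% in 1-2 KO. Among the 15 with a core, TLR3 and MX1 passed the filter on low counts through both knockouts and BST2 through 1-2 KO alone. Their rise was part of what made them testable, so these counts describe only the genes that passed. Another 15 tested genes held no such core in the window, with 6 higher and 5 lower for 1-1 KO, and 4 higher and 3 lower for 1-2 KO. The search took only a gap of 2 bases. The windows of OAS1, RIGI, TRIM25 and IFI35, counted here as without a core, hold GAAA repeats with 1 base between, on either strand. A gene without this core may therefore still hold an ISRE. The presence of the searched core did not fix the direction. ISG15 and IFIT1 carried 2 cores each and were called in neither knockout, while PSMB8 and PSMB9 held none in this window and rose in both. IFI44 and IFI44L carried the element and held at most 11 counts in any library.

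In WT cells most of the group was expressed without added interferon. The mean level was at least 1 CPM for 28 of the 47 genes in WT, 33 in 1-1 KO and 31 in 1-2 KO. Scaled to exon length, ADAR was highest in WT at 40.3 CPM per kb, followed by IFITM3 at 22.2, ISG15 at 19.8, IFNGR1 at 17, IRF3 at 16.7 and MAVS at 12.5 CPM per kb. On this scale the sensors lay lower: EIF2AK2 was at 1.86, IFIH1 at 0.159, RIGI at 0.0702 and TLR3 at 0.0152 CPM per kb in WT. The length was that of all annotated exons of a gene merged, 867 bases for ISG15 and 11036 for EIF2AK2. Genes with many annotated isoforms therefore come out lower in this order. None of 22 interferon genes of the table exceeded 2 counts in a library, and together they held 6 counts over the 9 libraries.

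**Figure D1:**
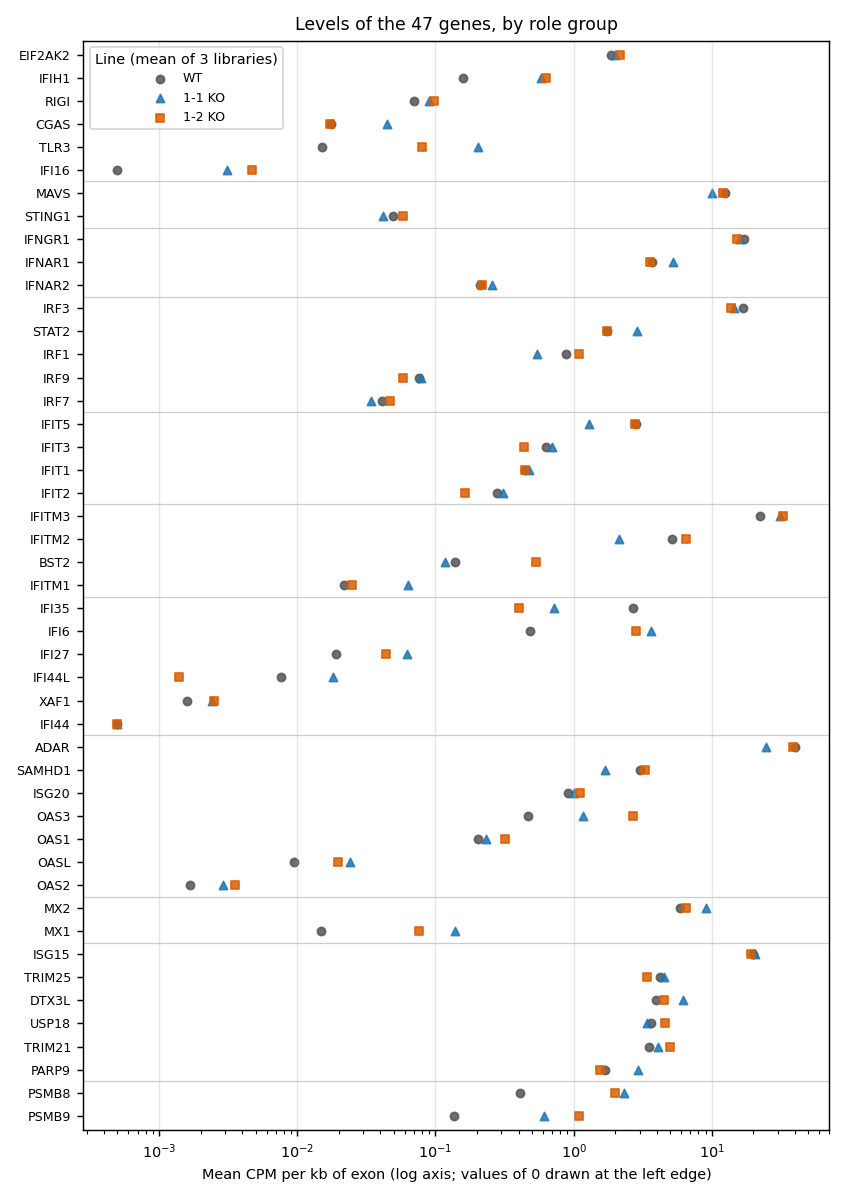
Mean CPM per kb of exon (log axis) of the 47 genes in the 3 lines (WT circles, 1-1 KO triangles, 1-2 KO squares), grouped by role, each point the mean of 3 libraries. ADAR, IFITM3 and ISG15 are at the right in each line, and the points of IFIH1, TLR3, MX1, IFI6, PSMB8 and PSMB9 lie well to the right of WT in both knockouts.

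The 10 genes that were not tested were CGAS, IFI16, IRF7, IFITM1, IFI27, IFI44, IFI44L, XAF1, OAS2 and OASL. Their highest count was 19, for IFI27 in a 1-1 KO library. IFI44 had no count in any of the 9 libraries, and IFI16 and XAF1 were at 3 counts or fewer in each, so a change below that level could not be detected. IFI44L had 5, 4 and 1 counts in WT, 9, 6 and 11 in 1-1 KO and 1, 1 and 0 in 1-2 KO.

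Against WT, 1-1 KO had 15 of the 37 tested genes higher and 8 lower, with 14 not called. The 23 called in either direction compare with 63.4% of all tested genes. Of the 37, 40.5% were higher and 21.6% lower, where 32.5% of all tested genes were higher and 30.9% lower. The median log2 fold change of the 37 genes was 0.15, beside 0.01 over all tested genes. A change of more than 1 on the log2 scale was called for 10 genes (27.0%, beside 13.4% of all genes), of which 7 rose and 3 fell. In 27 of the 37 genes (73.0%, beside 68.9%) the 3 libraries of 1-1 KO did not overlap those of WT.

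Compared with the same 3 WT libraries, 1-2 KO had 18 of the 37 genes higher and 6 lower, with 13 not called. The 24 called in either direction compare with 54.4% of all tested genes. Of the 37, 48.6% were higher and 16.2% lower, where 28.2% and 26.2% of all tested genes were higher and lower. The median log2 fold change was 0.19, beside 0.02 over all tested genes. Over 1 on the log2 scale, 9 genes were called (24.3%, beside 11.7%), of which 8 rose and 1 fell, and in 27 genes (73.0%, beside 58.4%) the libraries did not overlap those of WT. TLR3 and MX1 passed the filter on low counts through both knockouts and BST2 through 1-2 KO alone, so their rise was part of what made them testable, and the shares describe the genes that passed rather than all 47.

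**Figure D2:**
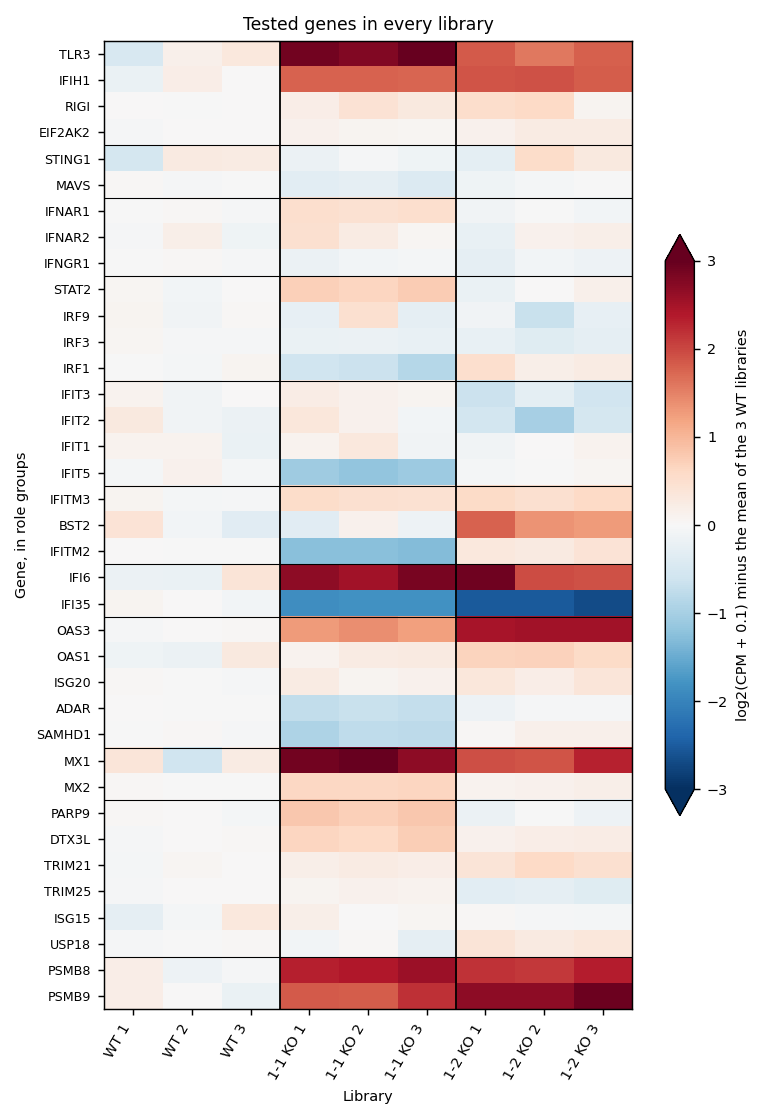
The 37 tested genes (rows, in role groups) in each of the 9 libraries (columns), coloured by log2(CPM + 0.1) minus the mean of the 3 WT libraries. TLR3, IFIH1, IFI6, OAS3, MX1, PSMB8 and PSMB9 are red in all 6 knockout libraries and IFI35 is blue in all 6, while IFIT5, IFITM2, SAMHD1 and ADAR are blue in the 1-1 KO libraries.

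EIF2AK2 encodes PKR, a kinase that binds double-stranded RNA and blocks translation by phosphorylating eIF2α. EIF2AK2 was at 19.9, 20.9 and 20.9 CPM in WT, 22.4, 21.7 and 21.5 CPM in 1-1 KO and 22.3, 24.5 and 24.4 CPM in 1-2 KO. All 6 knockout libraries were above the 3 of WT, although the steps were small. In 1-1 KO the difference did not pass the test (log2 fold change 0.09, 95% interval -0.03 to 0.21, edgeR adjusted p = 0.163), and in 1-2 KO EIF2AK2 rose (log2 fold change 0.21 ± 0.05 SE, edgeR adjusted p = 0.00524). Between the knockouts, whose libraries overlapped, it did not pass the test (log2 fold change 0.12, 95% interval 0.00 to 0.23, edgeR adjusted p = 0.0726). Under scaling by library size alone the 1-1 KO difference was 0.14 with an edgeR adjusted p of 0.028, and without replicate 1 of 1-2 KO the difference between the knockouts was 0.16 with an edgeR adjusted p of 0.014.

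Among the sensors, the genes of MDA5 and TLR3 changed most. IFIH1, the gene of MDA5, which senses long double-stranded RNA in the cytosol, was at 0.704, 0.96 and 0.824 CPM in WT, 3.02, 3.04 and 2.99 CPM in 1-1 KO and 3.3, 3.39 and 3.14 CPM in 1-2 KO. Every knockout library was above every WT library. IFIH1 rose in 1-1 KO (log2 fold change 1.86 ± 0.14 SE, edgeR adjusted p = 3.67e-08) and in 1-2 KO (log2 fold change 1.98 ± 0.14 SE, edgeR adjusted p = 2.37e-08), and the knockouts did not differ beyond the test (log2 fold change 0.12, 95% interval -0.12 to 0.36, edgeR adjusted p = 0.364). In 1-1 KO the 50 tested genes nearest to IFIH1 had a median log2 fold change of 0.56, and IFIH1 still rose by 1.30 after that median was subtracted. The same subtraction made IFIH1 higher in 1-2 KO than in 1-1 KO, by 0.65 (edgeR adjusted p = 0.000146).

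TLR3, the endosomal receptor for double-stranded RNA, was at 0.0503, 0.133 and 0.159 CPM in WT, 1.44, 1.34 and 1.76 CPM in 1-1 KO and 0.641, 0.527 and 0.624 CPM in 1-2 KO. The 3 lines were separate from each other, with 1-1 KO highest. WT held only 2 to 5 counts per library, so its rise rests on a low base in 1-1 KO (log2 fold change 3.74 ± 0.30 SE, edgeR adjusted p = 7.21e-08) and in 1-2 KO (log2 fold change 2.40 ± 0.35 SE, edgeR adjusted p = 4.59e-05). TLR3 was lower in 1-2 KO than in 1-1 KO (log2 fold change -1.34 ± 0.21 SE, edgeR adjusted p = 5.09e-05). RIGI, the sensor of RNA with triphosphate ends, was at 0.729, 0.72 and 0.729 CPM in WT, 0.851, 1.02 and 0.907 CPM in 1-1 KO and 1.09, 1.16 and 0.774 CPM in 1-2 KO. It was called neither in 1-1 KO (log2 fold change 0.35, 95% interval -0.08 to 0.78, edgeR adjusted p = 0.144) nor in 1-2 KO (log2 fold change 0.47, 95% interval 0.04 to 0.90, edgeR adjusted p = 0.059), and 42.5% of its 50-base stretches are shared with other annotated genes, mainly a readthrough transcript, so its counts are uncertain. Without replicate 3 of 1-2 KO the RIGI difference in that line was 0.63 with an edgeR adjusted p of 0.016, and it also passed under scaling by library size alone and with a filter of 10 counts in every library (edgeR adjusted p = 0.037 and 0.049).

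Of the adaptors, MAVS, the mitochondrial adaptor of RIG-I and MDA5, was at 151, 144 and 147 CPM in WT, 118, 122 and 112 CPM in 1-1 KO and 135, 143 and 145 CPM in 1-2 KO. Only 1-1 KO was separate from WT. MAVS fell in 1-1 KO (log2 fold change -0.33 ± 0.04 SE, edgeR adjusted p = 6.5e-06), and in 1-2 KO it did not pass the test (log2 fold change -0.06, 95% interval -0.15 to 0.02, edgeR adjusted p = 0.2). Its 50 neighbours had a median of -0.24 in 1-1 KO, and with that subtracted the MAVS difference was -0.09 with an edgeR adjusted p of 0.067. In 1-2 KO the subtraction turned it into a called fall of -0.16 (edgeR adjusted p = 0.00443). STING1, the adaptor of the DNA sensor cGAS, held 5 to 15 counts per library in the 3 lines and was called in no comparison.

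None of the receptor genes changed by more than 1 on the log2 scale. IFNAR1, which carries a chain of the type I interferon receptor, was at 57.6, 60.1 and 57.2 CPM in WT, 83.2, 79.8 and 83.2 CPM in 1-1 KO and 54.2, 58.1 and 55.4 CPM in 1-2 KO. The 1-1 KO libraries were above all others, while 1-2 KO and WT overlapped. IFNAR1 rose in 1-1 KO (log2 fold change 0.49 ± 0.04 SE, edgeR adjusted p = 7.72e-08) and did not pass the test in 1-2 KO (log2 fold change -0.06, 95% interval -0.15 to 0.03, edgeR adjusted p = 0.217). With the neighbours' median of 0.28 subtracted its rise in 1-1 KO was 0.21 (edgeR adjusted p = 0.000342). IFNGR1, a chain of the receptor for interferon gamma, was at 60.3, 62.1 and 59.1 CPM in WT, 53.8, 56.8 and 58.4 CPM in 1-1 KO and 49.9, 57.2 and 54.4 CPM in 1-2 KO. It fell slightly in 1-2 KO (log2 fold change -0.17 ± 0.05 SE, edgeR adjusted p = 0.0116), with no overlap with WT, and in 1-1 KO did not pass the test (log2 fold change -0.10, 95% interval -0.21 to 0.01, edgeR adjusted p = 0.0913), although it did without replicate 1 of 1-2 KO in the fit (edgeR adjusted p = 0.038) and in a fit of 1-1 KO and WT alone (edgeR adjusted p = 0.047). The 1-2 KO call of IFNGR1 was lost under scaling by library size alone, at -0.11 (edgeR adjusted p = 0.055), and with the neighbours' median subtracted, at 0.12 (edgeR adjusted p = 0.055). IFNAR2, the other chain of the type I receptor, was between 2.49 and 4.11 CPM over the 9 libraries and was called in no comparison. Other annotated genes share 15.2% of the 50-base stretches of IFNAR2, mainly IFNAR2-IL10RB on the same strand, so its counts are uncertain.

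The transcription factors moved in different directions. IRF1, an activator that is itself induced by interferon gamma, was at 10.6, 10.3 and 11.4 CPM in WT, 7.09, 6.83 and 5.93 CPM in 1-1 KO and 15.4, 12.2 and 12.9 CPM in 1-2 KO. The order was 1-1 KO lowest and 1-2 KO highest, with no overlap between lines. IRF1 fell in 1-1 KO (log2 fold change -0.70 ± 0.10 SE, edgeR adjusted p = 2.67e-05), rose in 1-2 KO (log2 fold change 0.33 ± 0.09 SE, edgeR adjusted p = 0.00909) and was higher in 1-2 KO than in 1-1 KO (log2 fold change 1.03 ± 0.10 SE, edgeR adjusted p = 3.89e-07). STAT2, the partner of IRF9 in the complex that binds the ISRE, was at 17, 15.2 and 16.5 CPM in WT, 26.7, 25.5 and 27.7 CPM in 1-1 KO and 14.1, 16.4 and 18.2 CPM in 1-2 KO. It rose in 1-1 KO (log2 fold change 0.71 ± 0.08 SE, edgeR adjusted p = 2.57e-06), where each library was above all of WT and 1-2 KO, and did not pass the test in 1-2 KO (log2 fold change 0.00, 95% interval -0.18 to 0.18, edgeR adjusted p = 0.997).

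IRF3, the factor that MAVS and STING activate, was at 66.2, 61.9 and 62.2 CPM in WT, 55.5, 55.7 and 54.6 CPM in 1-1 KO and 54.2, 49.5 and 52.9 CPM in 1-2 KO. Both knockouts were below WT with no overlap, and IRF3 fell in 1-1 KO (log2 fold change -0.20 ± 0.04 SE, edgeR adjusted p = 0.00105) and in 1-2 KO (log2 fold change -0.28 ± 0.04 SE, edgeR adjusted p = 7.58e-05). Its difference between the knockouts, -0.08 on the log2 scale with an edgeR adjusted p of 0.114, passed without replicate 1 of 1-2 KO, at -0.11 (edgeR adjusted p = 0.046). BCL2L12 lies on the opposite strand and overlaps IRF3, and whether the counting used strand is not stated. IRF9 was low, between 0.276 and 0.729 CPM over the 9 libraries, and was called in no comparison. Other annotated genes share 20.1% of the 50-base stretches of IRF9, so its counts are uncertain too.

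The 4 IFIT genes, whose proteins bind foreign RNA and block its translation, lie in a row on chromosome 10, with between 8080 and 18035 bases from each to the next. They did not move together. IFIT5 was at 11.7, 13.5 and 11.7 CPM in WT, 5.81, 5.37 and 5.69 CPM in 1-1 KO and 11.8, 12.2 and 12.7 CPM in 1-2 KO. The 1-1 KO libraries were below all others, and 1-2 KO overlapped WT. IFIT5 fell in 1-1 KO (log2 fold change -1.13 ± 0.08 SE, edgeR adjusted p = 2.33e-08) and did not pass the test in 1-2 KO (log2 fold change -0.01, 95% interval -0.17 to 0.15, edgeR adjusted p = 0.933). The difference between the knockouts also passed (log2 fold change 1.12 ± 0.08 SE, edgeR adjusted p = 1.8e-08).

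IFIT2 and IFIT3 showed the other pattern, with 1-2 KO low. IFIT2 was at 1.48, 1.09 and 1.05 CPM in WT, 1.54, 1.31 and 1.13 CPM in 1-1 KO and 0.783, 0.552 and 0.799 CPM in 1-2 KO, and IFIT3 was at 3.42, 2.96 and 3.2 CPM in WT, 3.76, 3.5 and 3.36 CPM in 1-1 KO and 1.99, 2.59 and 2.1 CPM in 1-2 KO. For both genes the 1-2 KO libraries were below those of WT and of 1-1 KO, which overlapped. IFIT2 fell in 1-2 KO (log2 fold change -0.77 ± 0.22 SE, edgeR adjusted p = 0.00767) and so did IFIT3 (log2 fold change -0.52 ± 0.13 SE, edgeR adjusted p = 0.00287), while in 1-1 KO the test called neither IFIT2 (log2 fold change 0.12, 95% interval -0.29 to 0.54, edgeR adjusted p = 0.595) nor IFIT3 (log2 fold change 0.15, 95% interval -0.11 to 0.40, edgeR adjusted p = 0.295). IFIT1, between 1.74 and 2.53 CPM over the 9 libraries, was called in no comparison. LIPA overlaps IFIT1, IFIT2 and IFIT3 on the opposite strand, and IFIT2 lost its call in DESeq2's Wald test of only 1-2 KO and WT.

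**Figure D3:**
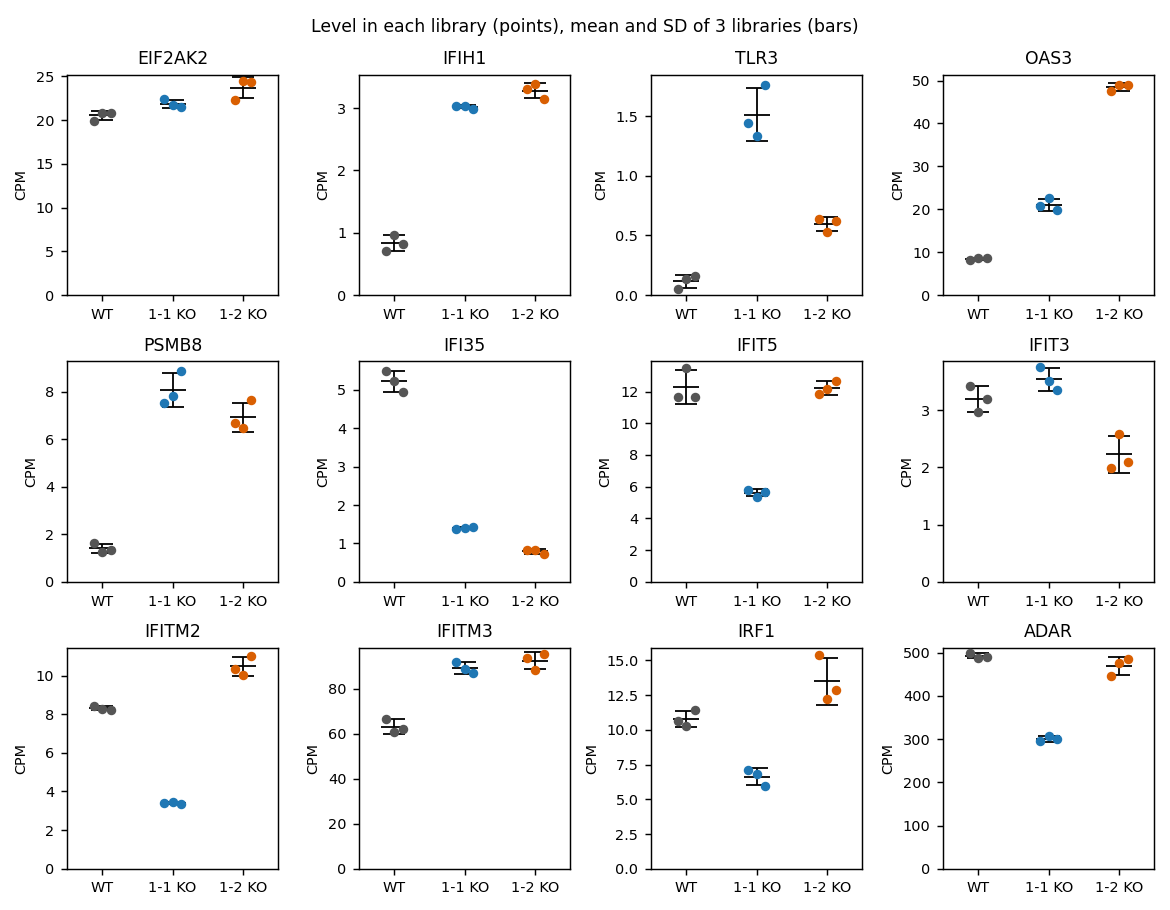
CPM in each library (points) with the mean and SD of 3 libraries (bars) for 12 genes in the 3 lines; each axis starts at 0. IFIH1, TLR3, OAS3 and PSMB8 are higher in both knockouts, IFI35 is lower in both, and IFIT5, IFITM2, IRF1 and ADAR are low in 1-1 KO alone.

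Of the membrane restriction factors, IFITM3, which blocks fusion of viruses in endosomes, was at 66.7, 60.7 and 62 CPM in WT, 92, 88.7 and 86.9 CPM in 1-1 KO and 93.5, 88.3 and 95.4 CPM in 1-2 KO. All 6 knockout libraries were above WT, and the knockouts overlapped. IFITM3 rose in 1-1 KO (log2 fold change 0.50 ± 0.04 SE, edgeR adjusted p = 2.43e-07) and in 1-2 KO (log2 fold change 0.55 ± 0.04 SE, edgeR adjusted p = 1.23e-07). IFITM2, its close relative on chromosome 11, was at 8.44, 8.27 and 8.24 CPM in WT, 3.4, 3.45 and 3.33 CPM in 1-1 KO and 10.4, 10.0 and 11 CPM in 1-2 KO, and no line overlapped another. IFITM2 fell in 1-1 KO (log2 fold change -1.29 ± 0.08 SE, edgeR adjusted p = 5.27e-09), rose in 1-2 KO (log2 fold change 0.33 ± 0.07 SE, edgeR adjusted p = 0.00119) and was higher in 1-2 KO than in 1-1 KO (log2 fold change 1.62 ± 0.08 SE, edgeR adjusted p = 2.73e-10). The rise in 1-2 KO was 0.15 with an edgeR adjusted p of 0.088 once the neighbours' median of 0.18 was subtracted, and 21.6% of the 50-base stretches of IFITM2 and 15.4% of those of IFITM3 recur in other genes, so reads may have been split between them.

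BST2, the gene of tetherin, which holds budding virions at the cell surface, was at 0.226, 0.133 and 0.0951 CPM in WT, 0.0945, 0.17 and 0.123 CPM in 1-1 KO and 0.736, 0.527 and 0.499 CPM in 1-2 KO. WT and 1-1 KO held between 3 and 9 counts and overlapped, and 1-2 KO held between 20 and 31 counts. BST2 rose in 1-2 KO (log2 fold change 1.90 ± 0.35 SE, edgeR adjusted p = 0.000398) and was not called in 1-1 KO (log2 fold change -0.27, 95% interval -1.30 to 0.76, edgeR adjusted p = 0.643).

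IFI6, a small membrane protein that interferon induces strongly, was at 0.377, 0.373 and 0.602 CPM in WT, 3.4, 3.02 and 3.8 CPM in 1-1 KO and 4.01, 2.01 and 1.92 CPM in 1-2 KO. All knockout libraries were above WT, and replicate 1 of 1-2 KO was well above the other 2 of its line. IFI6 rose in 1-1 KO (log2 fold change 2.94 ± 0.31 SE, edgeR adjusted p = 1.55e-06) and in 1-2 KO (log2 fold change 2.58 ± 0.32 SE, edgeR adjusted p = 1.05e-05). Without replicate 1 of 1-2 KO the rise in that line was 2.15 (edgeR adjusted p = 1.24e-06), and IFI6 was then lower in 1-2 KO than in 1-1 KO by -0.79 (edgeR adjusted p = 0.000371), a difference that was not called with all libraries (log2 fold change -0.36, 95% interval -0.85 to 0.14, edgeR adjusted p = 0.187) unless the filter on low counts was dropped (edgeR adjusted p = 0.041). LINC02574, on the same strand, shares 16.4% of the 50-base stretches of IFI6.

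IFI35, a leucine zipper protein that pairs with NMI, went the other way. IFI35 was at 5.5, 5.23 and 4.95 CPM in WT, 1.37, 1.41 and 1.42 CPM in 1-1 KO and 0.831, 0.829 and 0.724 CPM in 1-2 KO. The lines were separate, with WT highest and 1-2 KO lowest. IFI35 fell in 1-1 KO (log2 fold change -1.90 ± 0.11 SE, edgeR adjusted p = 3.69e-09) and in 1-2 KO (log2 fold change -2.71 ± 0.12 SE, edgeR adjusted p = 3.01e-10), and was lower in 1-2 KO than in 1-1 KO (log2 fold change -0.81 ± 0.14 SE, edgeR adjusted p = 0.000174). No other gene of the group fell by more than 1 on the log2 scale in both knockouts.

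The OAS enzymes make the short oligoadenylates that activate RNase L, and OAS1, OAS3 and OAS2 lie next to each other on chromosome 12, with 4831 and 1934 bases between them. OAS3 was at 8.24, 8.59 and 8.65 CPM in WT, 20.7, 22.7 and 19.9 CPM in 1-1 KO and 47.5, 48.9 and 49.1 CPM in 1-2 KO. It stepped up from WT to 1-1 KO and again to 1-2 KO, with each line narrow and separate. OAS3 rose in 1-1 KO (log2 fold change 1.31 ± 0.06 SE, edgeR adjusted p = 3.02e-10) and in 1-2 KO (log2 fold change 2.51 ± 0.06 SE, edgeR adjusted p = 4.53e-13), and was higher in 1-2 KO than in 1-1 KO (log2 fold change 1.20 ± 0.05 SE, edgeR adjusted p = 1.43e-10). OAS1 was at 2.39, 2.32 and 3.27 CPM in WT, 2.84, 3.11 and 3.19 CPM in 1-1 KO and 4.25, 4.32 and 3.94 CPM in 1-2 KO. It rose in 1-2 KO (log2 fold change 0.66 ± 0.13 SE, edgeR adjusted p = 0.000607), where no library overlapped WT, and in 1-1 KO it did not pass the test (log2 fold change 0.21, 95% interval -0.08 to 0.50, edgeR adjusted p = 0.193), although without replicate 3 of WT the difference there was 0.37 with an edgeR adjusted p of 0.018. OAS2, from the same cluster, held at most 4 counts in a library.

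ADAR, which converts adenosine to inosine in double-stranded RNA and so keeps a cell's own RNA from setting off MDA5 and PKR, was at 500.2, 488 and 491 CPM in WT, 295, 308 and 301 CPM in 1-1 KO and 446, 477 and 485 CPM in 1-2 KO. The 1-1 KO libraries were far below the others. ADAR fell in 1-1 KO (log2 fold change -0.71 ± 0.04 SE, edgeR adjusted p = 1.16e-09) and did not pass the test in 1-2 KO (log2 fold change -0.07, 95% interval -0.15 to 0.01, edgeR adjusted p = 0.125). Its 50 neighbours on chromosome 1 had a median of -0.59 in 1-1 KO, and with that subtracted ADAR was at -0.12 (edgeR adjusted p = 0.0123).

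SAMHD1, which degrades deoxynucleotides and so starves reverse transcription, was at 32.4, 33.4 and 31.8 CPM in WT, 16.9, 19 and 18.7 CPM in 1-1 KO and 33.3, 36.3 and 36.3 CPM in 1-2 KO. It fell in 1-1 KO (log2 fold change -0.84 ± 0.06 SE, edgeR adjusted p = 1.76e-08), with no overlap with any other library and a neighbours' median of -0.02, and did not pass the test in 1-2 KO (log2 fold change 0.12, 95% interval 0.00 to 0.24, edgeR adjusted p = 0.09). Without replicate 1 of 1-2 KO the difference in that line was 0.16 with an edgeR adjusted p of 0.022, and under scaling by library size alone it was 0.17 (edgeR adjusted p = 0.013). ISG20, an RNA exonuclease, was between 6.37 and 8.33 CPM over the 9 libraries and rose in 1-2 KO (log2 fold change 0.31 ± 0.08 SE, edgeR adjusted p = 0.00465), with 0.16 in 1-1 KO (edgeR adjusted p = 0.0964). The 1-2 KO call of ISG20 was lost in DESeq2's Wald test of only that line and WT (DESeq2 adjusted p = 0.052). Its 1-1 KO difference was called under scaling by library size alone, at 0.21 (edgeR adjusted p = 0.035), and with the neighbours' median subtracted, at 0.46 (edgeR adjusted p = 0.000243).

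The MX genes, whose GTPases trap viral nucleoproteins and capsids, are neighbours on chromosome 21, 10626 bases apart, and differed widely in level. MX2 was at 86.9, 85.2 and 84.5 CPM in WT, 132, 132 and 133 CPM in 1-1 KO and 92.3, 93 and 97.2 CPM in 1-2 KO. It rose in 1-1 KO (log2 fold change 0.63 ± 0.03 SE, edgeR adjusted p = 1.14e-09), and by less in 1-2 KO (log2 fold change 0.14 ± 0.03 SE, edgeR adjusted p = 0.00289), with no overlap between lines. MX1 was at 0.352, 0.133 and 0.317 CPM in WT, 2.53, 2.8 and 2.18 CPM in 1-1 KO and 1.26, 1.21 and 1.65 CPM in 1-2 KO. All knockout libraries were above WT, where MX1 held 5 to 14 counts, and it rose in 1-1 KO (log2 fold change 3.22 ± 0.25 SE, edgeR adjusted p = 6.31e-08) and in 1-2 KO (log2 fold change 2.35 ± 0.28 SE, edgeR adjusted p = 5.59e-06). Both genes were lower in 1-2 KO than in 1-1 KO, MX1 by -0.87 and MX2 by -0.49 on the log2 scale (edgeR adjusted p = 0.000755 and 1.03e-08). The neighbours' medians were 0.31 for MX2 and 0.35 for MX1 in 1-1 KO, and after subtraction the rise of MX2 in 1-2 KO was lost, at -0.02 (edgeR adjusted p = 0.57).

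ISG15, the ubiquitin-like protein that interferon induces and that is attached to other proteins, was at 13.9, 16.3 and 21.2 CPM in WT, 19, 17.1 and 17.7 CPM in 1-1 KO and 17.2, 16.6 and 16.2 CPM in 1-2 KO. The WT libraries spanned those of both knockouts. ISG15 was called neither in 1-1 KO (log2 fold change 0.07, 95% interval -0.17 to 0.31, edgeR adjusted p = 0.599) nor in 1-2 KO (log2 fold change -0.03, 95% interval -0.27 to 0.21, edgeR adjusted p = 0.831), and without replicate 3 of WT, its highest library, the 1-1 KO difference was 0.25 with an edgeR adjusted p of 0.017. USP18, the protease that removes ISG15, was at 14.6, 14.7 and 15.3 CPM in WT, 14.1, 15.2 and 12.4 CPM in 1-1 KO and 19.5, 17.9 and 18.9 CPM in 1-2 KO. It rose in 1-2 KO (log2 fold change 0.34 ± 0.07 SE, edgeR adjusted p = 0.0014), with no overlap with WT, and was not called in 1-1 KO (log2 fold change -0.09, 95% interval -0.25 to 0.07, edgeR adjusted p = 0.287). With the neighbours' median subtracted, USP18 was no longer called in 1-2 KO, at 0.18 (edgeR adjusted p = 0.054), and was called higher in 1-1 KO, at 0.37 (edgeR adjusted p = 0.000718). Other genes share 23.1% of the 50-base stretches of USP18.

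The ubiquitin ligase DTX3L and its partner PARP9, an ADP-ribosyl transferase, start from 1 locus on chromosome 3 on opposite strands and overlap by 240 bases. PARP9 was at 15.6, 15.3 and 14.4 CPM in WT, 26.5, 24.8 and 26.5 CPM in 1-1 KO and 13.4, 14.9 and 13.6 CPM in 1-2 KO, and DTX3L was at 22.1, 22.8 and 23.1 CPM in WT, 35.3, 34.6 and 37.9 CPM in 1-1 KO and 24.7, 26.2 and 26.4 CPM in 1-2 KO. In both genes 1-1 KO was above all other libraries. PARP9 rose in 1-1 KO (log2 fold change 0.78 ± 0.06 SE, edgeR adjusted p = 6.92e-08) and DTX3L did too (log2 fold change 0.67 ± 0.05 SE, edgeR adjusted p = 6.36e-08). In 1-2 KO, DTX3L rose (log2 fold change 0.19 ± 0.05 SE, edgeR adjusted p = 0.00833) and PARP9 did not pass the test (log2 fold change -0.12, 95% interval -0.25 to 0.02, edgeR adjusted p = 0.137). Their neighbours' medians in 1-1 KO were 0.42 and 0.36, and with these subtracted the rises were 0.36 for PARP9 and 0.31 for DTX3L. In 1-2 KO the subtraction gave PARP9 a called fall of -0.18 (edgeR adjusted p = 0.033), and DTX3L lost its call in DESeq2's Wald test of only 1-2 KO and WT (DESeq2 adjusted p = 0.054).

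TRIM21, a ubiquitin ligase and intracellular antibody receptor, was at 6.48, 7.09 and 6.82 CPM in WT, 7.63, 8.12 and 7.84 CPM in 1-1 KO and 8.88, 10.3 and 9.48 CPM in 1-2 KO. It rose in 1-1 KO (log2 fold change 0.21 ± 0.08 SE, edgeR adjusted p = 0.0356) and in 1-2 KO (log2 fold change 0.49 ± 0.08 SE, edgeR adjusted p = 0.000124), and the lines did not overlap. TRIM25, a ligase known for its action on RIG-I, was between 51.1 and 52.9 CPM in WT, 54.9 and 56.6 CPM in 1-1 KO and 40.2 and 43.5 CPM in 1-2 KO. It rose slightly in 1-1 KO (log2 fold change 0.10 ± 0.04 SE, edgeR adjusted p = 0.0392), fell in 1-2 KO (log2 fold change -0.32 ± 0.04 SE, edgeR adjusted p = 1.49e-05) and was lower in 1-2 KO than in 1-1 KO (log2 fold change -0.42 ± 0.04 SE, edgeR adjusted p = 5.14e-07). The calls of TRIM21 and TRIM25 in 1-1 KO were the weakest of the group. TRIM21 lost its call without WT replicate 1 or 3 or without any of the 1-1 KO replicates, and TRIM25 without WT replicate 1 or 2 or without any of the 1-1 KO replicates, with edgeR adjusted p between 0.052 and 0.13. Both also lost it in DESeq2's Wald test (DESeq2 adjusted p = 0.15 and 0.166) and with no filter on low counts (edgeR adjusted p = 0.134 and 0.245).

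The immunoproteasome subunits PSMB8 and PSMB9 replace constitutive subunits when interferon is present and change the peptides cut for antigen presentation. Their genes lie on opposite strands of chromosome 6, and their annotated spans overlap by 544 bases. The promoter window of PSMB9 (chr6:32853942-32854241) lies outside that overlap. PSMB8 was at 1.63, 1.25 and 1.36 CPM in WT, 7.51, 7.83 and 8.9 CPM in 1-1 KO and 6.67, 6.48 and 7.64 CPM in 1-2 KO. PSMB9 was at 0.528, 0.453 and 0.38 CPM in WT, 1.87, 1.82 and 2.43 CPM in 1-1 KO and 3.42, 3.44 and 4.12 CPM in 1-2 KO. Every knockout library was several times above every WT library for both genes. PSMB8 rose in 1-1 KO (log2 fold change 2.50 ± 0.13 SE, edgeR adjusted p = 6.19e-10) and in 1-2 KO (log2 fold change 2.28 ± 0.13 SE, edgeR adjusted p = 2.42e-09), and PSMB9 rose in 1-1 KO (log2 fold change 2.14 ± 0.20 SE, edgeR adjusted p = 3.58e-07) and in 1-2 KO (log2 fold change 2.99 ± 0.18 SE, edgeR adjusted p = 7.28e-09). PSMB9 was higher in 1-2 KO than in 1-1 KO (log2 fold change 0.84 ± 0.14 SE, edgeR adjusted p = 0.000106), and PSMB8 did not pass that test (log2 fold change -0.22, 95% interval -0.44 to -0.01, edgeR adjusted p = 0.0666) but did without replicate 3 of 1-2 KO or of WT (edgeR adjusted p = 0.031 and 0.047), as it did with a filter of 10 counts in every library and in a fit of the knockouts alone (edgeR adjusted p = 0.047 and 0.040). The 50 neighbours had medians between -0.24 and 0.02 in both comparisons with WT. The genes are on opposite strands, so counts in their overlap are not independent if strand was not used. PSMB8-AS1 overlaps both genes, opposite to PSMB8 and on the same strand as PSMB9, and shares 2.66% of the 50-base stretches of PSMB9. TAP1 overlaps PSMB9 on the opposite strand.

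**Figure D4:**
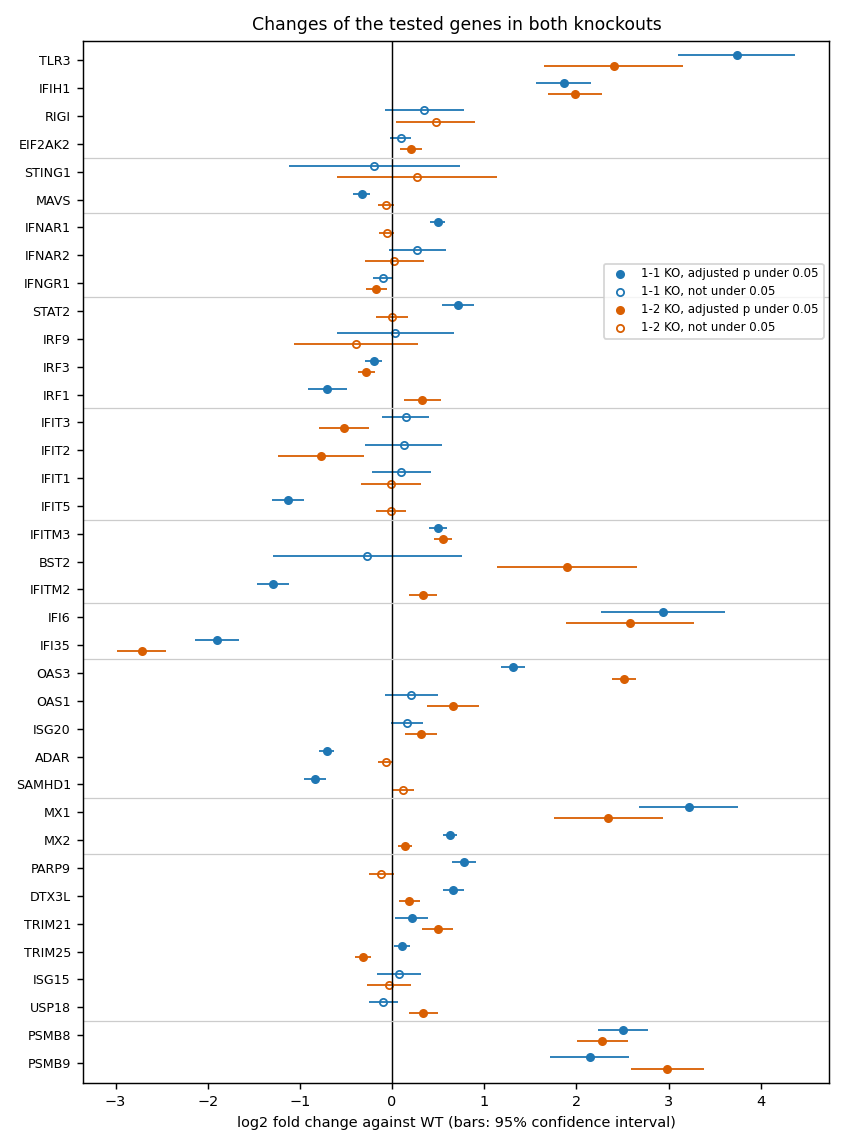
Log2 fold change against WT with its 95% confidence interval for the 37 tested genes (1-1 KO blue, 1-2 KO orange); filled points passed an adjusted p of 0.05. IFIH1, TLR3, IFI6, OAS3, MX1, PSMB8 and PSMB9 lie beyond 1 to the right in both knockouts and IFI35 beyond -1 in both, and IRF1, IFITM2 and TRIM25 have filled points on opposite sides of 0.

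The knockouts were also compared with each other. In 1-2 KO 12 of the 37 genes were higher and 11 lower than in 1-1 KO, or 32.4% and 29.7%, where 33.1% and 32.2% of all tested genes were higher and lower, and the 23 called in either direction compare with 65.3% of all tested genes, so the share called was near that of the other genes. A difference of more than 1 on the log2 scale was called for 6 genes (16.2%, beside 14.1%), and the libraries of 25 genes (67.6%, beside 69.8%) did not overlap. The 6 genes were BST2, IFITM2, OAS3, IFIT5 and IRF1, higher in 1-2 KO, and TLR3, lower. ADAR and SAMHD1 were higher in 1-2 KO than in 1-1 KO by 0.64 and 0.95, and PARP9 and STAT2 were lower by -0.90 and -0.71.

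Genes near each other can move together, so each gene was set beside its 50 nearest tested genes by their median log2 fold change. In 1-1 KO this median was between -0.59 and 0.75 for the 37 genes, and it was beyond 0.3 in either direction for 11 of them. In 1-2 KO it was between -0.31 and 0.26, and beyond 0.3 for 1 gene, IFI6. With the median subtracted, 22 of the 23 calls in 1-1 KO and 19 of the 24 in 1-2 KO held. The calls lost were MAVS in 1-1 KO and IFNGR1, IRF1, IFITM2, MX2 and USP18 in 1-2 KO. New calls in 1-1 KO were EIF2AK2 (0.15), IFIT3 (0.32), OAS1 (0.40), ISG20 and USP18, all higher, and in 1-2 KO they were MAVS and PARP9, lower, and ADAR, higher (0.10, edgeR adjusted p = 0.034). The differences from WT that held but moved by more than 1.5 times were those of IFNAR1, ADAR, MX2 (0.32), PARP9 and DTX3L in 1-1 KO and ISG20 (0.20) in 1-2 KO, which shrank, and those of IRF3 (-0.36) and TRIM21 (0.33) in 1-1 KO, which grew. Between the knockouts 20 of the 23 calls held. MAVS and TRIM21 lost theirs, and USP18 was called in the other direction (-0.19). IFIH1, IFNGR1, IFITM3 and ISG20 gained a call. TLR3 (-0.66), ADAR (0.22), PARP9 (-0.53), IFNAR1 (-0.27) and DTX3L (-0.16), among others, stayed called with smaller differences.

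**Figure D5:**
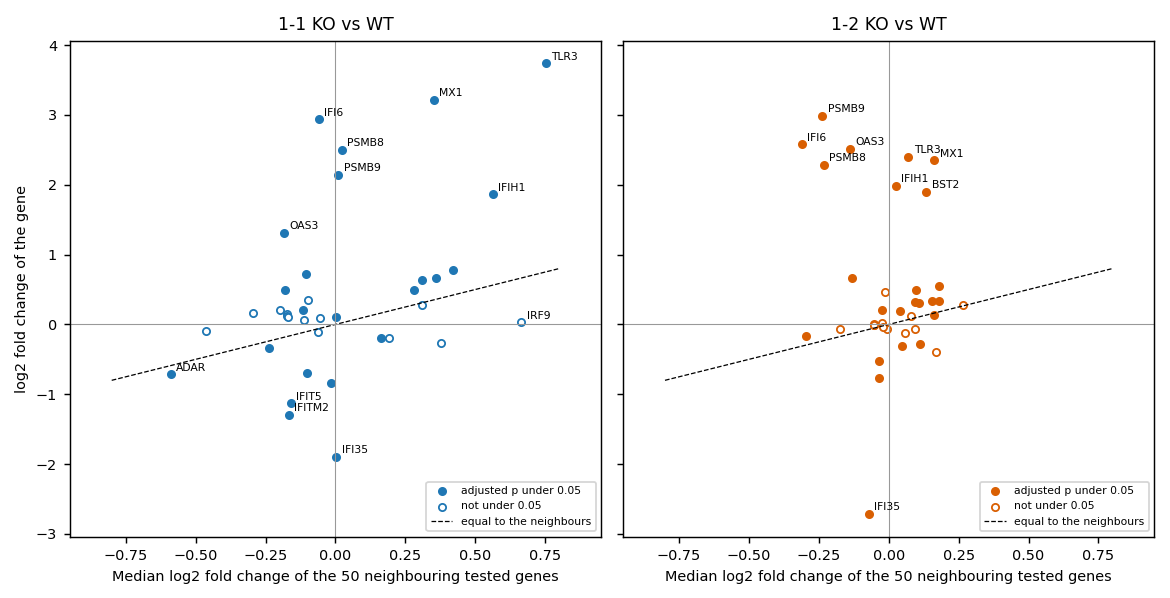
Log2 fold change of each of the 37 tested genes (vertical) against the median of the 50 tested genes around it (horizontal, log2 fold change), for each knockout against WT; filled points passed an adjusted p of 0.05, and the dashed line marks equal values. ADAR lies near the dashed line in 1-1 KO, while IFI6, PSMB8, PSMB9, OAS3 and IFI35 are far from it in both panels.

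A further 115 genes of the interferon and RNA-sensing pathways, listed by role, showed how the rest of the system moved. Of these, 91 were tested. For 1-1 KO the test called 39 higher and 27 lower, leaving 25, and for 1-2 KO 38 higher and 20 lower, leaving 33, where 32.5% and 30.9% of all tested genes were higher and lower in 1-1 KO, and 28.2% and 26.2% in 1-2 KO. Their median log2 fold changes were 0.04 and 0.06, beside 0.01 and 0.02 over all genes. Among other interferon-stimulated genes, 22 of 38 tested were higher and 6 lower in 1-1 KO, and 19 were higher and 8 lower in 1-2 KO. CMPK2, with 2, 2 and 5 counts in WT and 24, 31 and 28 in 1-2 KO, passed the filter on low counts through 1-2 KO alone. The rise of such a gene was part of what made it testable, so counts from the further lists describe only the genes that passed.

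In that list GBP1, an interferon-induced GTPase, averaged 74.5 ± 1.63 CPM (SD, n = 3) in WT, 8.86 ± 0.675 CPM in 1-1 KO and 88.8 ± 4.94 CPM in 1-2 KO. It fell by 3.07 on the log2 scale in 1-1 KO and rose by 0.25 in 1-2 KO (edgeR adjusted p = 5.48e-14 and 0.000586). UBE2L6, the enzyme that conjugates ISG15, rose from 25.6 ± 1.51 CPM in WT to 54.3 ± 0.973 and 55.7 ± 3.01 CPM (log2 fold changes 1.09 and 1.12, edgeR adjusted p = 4.97e-10 and 4.52e-10). The aminopeptidase gene LAP3 fell by 1.01 and 0.88 on the log2 scale (edgeR adjusted p = 1.82e-11 and 8.58e-11). In 1-2 KO, subtracting the neighbours' median gave 0.57 for GBP1 and -0.54 for LAP3, both still called.

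Among ligands, receptors and JAK-STAT genes, 7 of 16 tested rose in each knockout, and 5 fell in 1-1 KO and 4 in 1-2 KO (all tested genes: 32.5% higher and 30.9% lower, and 28.2% and 26.2%). IRF2, which competes with IRF1 for DNA, rose by 1.04 in 1-1 KO and 0.26 in 1-2 KO on the log2 scale (edgeR adjusted p = 1.89e-08 and 0.00912). Its neighbours' median in 1-1 KO was 0.75, and with that subtracted the rise was 0.29, while the 1-2 KO call was lost in DESeq2's Wald test of only that line and WT (DESeq2 adjusted p = 0.076). Among other sensing and relay genes, 5 of 19 tested rose in each knockout, and 9 fell in 1-1 KO and 5 in 1-2 KO. The IRF3 kinase TBK1 fell by 0.28 in 1-1 KO and 0.51 in 1-2 KO (edgeR adjusted p = 2.78e-05 and 8.52e-08). Its relative IKBKE fell by 0.87 in 1-1 KO and rose by 0.56 in 1-2 KO (edgeR adjusted p = 2.56e-08 and 1.81e-06). The RNA helicase gene DHX15 fell by 0.44 and 0.39 on the log2 scale (edgeR adjusted p = 1.65e-07 and 6.64e-07), and the helicase gene DDX41 fell by 0.56 in 1-1 KO (edgeR adjusted p = 1.06e-08) and was at -0.03 in 1-2 KO (edgeR adjusted p = 0.45). With the neighbours' medians subtracted DHX15 was at -0.25 in 1-1 KO and lost its call in 1-2 KO, at -0.038 (edgeR adjusted p = 0.42). DDX41 was then at -0.25 in 1-1 KO and called lower in 1-2 KO, at -0.18 (edgeR adjusted p = 0.000859).

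The list of PKR partners and eIF2α kinases held 18 genes, all tested, with 5 higher and 7 lower in 1-1 KO, while 1-2 KO had 7 higher and 3 lower (all tested genes: 32.5% higher and 30.9% lower, and 28.2% and 26.2%). None of them passed 1 on the log2 scale. EIF2AK1, the eIF2α kinase that responds to haem, rose by 0.67 in 1-1 KO (edgeR adjusted p = 9.21e-10) and was at -0.08 in 1-2 KO (edgeR adjusted p = 0.0574). With the neighbours' medians subtracted its rise in 1-1 KO was 0.14 and it was called lower in 1-2 KO, at -0.22 (edgeR adjusted p = 0.000111). EIF2AK1 was also called lower in 1-2 KO with DESeq2's size factors or Wald test, with a filter of 10 counts in every library and without replicate 3 of WT, at between -0.12 and -0.08. EIF2AK4, the kinase that senses uncharged tRNA, was at -0.03 in 1-1 KO (edgeR adjusted p = 0.499) and rose by 0.31 in 1-2 KO (edgeR adjusted p = 1.62e-05). The phosphatase subunit gene PPP1CC fell by 0.16 and 0.29 on the log2 scale (edgeR adjusted p = 0.000978 and 6.01e-06), and both calls were lost with the neighbours' medians subtracted, at -0.050 and -0.083 (edgeR adjusted p = 0.226 and 0.055). NPM1, a nucleolar protein that binds PKR, fell by 0.80 in 1-1 KO (edgeR adjusted p = 2.12e-10) and was at -0.02 in 1-2 KO (edgeR adjusted p = 0.649). After subtraction NPM1 was at -0.52 in 1-1 KO and called lower in 1-2 KO, at -0.17 (edgeR adjusted p = 0.000856), and EIF2AK4 was called higher in 1-1 KO, at 0.18 (edgeR adjusted p = 0.00152).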

How the data were processed

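Stranded, paired mRNA libraries were sequenced from 3 RNA extractions of each Huh-7 line (WT and both knockouts). The authors used STAR for alignment to hg38 (annotation 104) and featureCounts for counting, and deposited raw counts per gene. Their tool versions, the strand setting and the treatment of reads with several matches are not given in the sources used here. Symbols and positions came from GENCODE 44 (60463 of 60664 genes matched), promoters from RefSeq on GRCh38.p14.

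Counts were filtered with filterByExpr (minimum count 10, minimum total 15), scaled by TMM and tested with edgeR 4.0.16 (quasi-likelihood test) in R 4.3.3. The fit covered all 9 libraries, with the line as its factor, and p-values were adjusted by Benjamini-Hochberg over 17207 genes in each comparison, with a threshold of 0.05. The biological coefficient of variation was 5.55%. Total counts were between 32384469 and 41782387 per library, and 95% intervals cover the spread between libraries only. The floor of a line was 3 counts, met where none of its libraries had more. DESeq2 1.42.0, other scalings, filters and thresholds, a replicate term, subtraction of the median of 50 neighbouring genes and leaving out each library were tried as alternatives.

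The 47 genes, the further lists, the role groups and the alternatives were chosen with earlier results of these data known. Library values are given for EIF2AK2, for the 2 called genes with the largest change in each role group and knockout, and for the gene with the highest level per length in each group. Of each further list, the 2 genes with the smallest adjusted p per knockout are named. RIGI was added to them with its values known. A few genes that the rules pick are left out here. Tables and figures used Python 3.11.15.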

Additional observations from a re-analysis of the deposited data

Results flagged for a closer look

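In all, 3 genes were called in opposite directions in the knockouts, and the direct comparison of 1-2 KO with 1-1 KO passed the test for each (edgeR, all 9 libraries). IRF1 was lower than WT in 1-1 KO and higher in 1-2 KO in all 3 libraries of each line, with a log2 difference of 1.03 between the knockouts (edgeR adjusted p = 3.89e-07). IFITM2 was also lower in 1-1 KO and higher in 1-2 KO, with a difference of 1.62 (edgeR adjusted p = 2.73e-10). TRIM25 was higher in 1-1 KO and lower in 1-2 KO, with a difference of -0.42 (edgeR adjusted p = 5.14e-07), and its rise in 1-1 KO was lost in DESeq2's Wald test and when single libraries of either line were left out. With the neighbours' median subtracted, the rises in 1-2 KO were no longer called for IRF1, at 0.23 (edgeR adjusted p = 0.052), and IFITM2, at 0.15 (edgeR adjusted p = 0.088).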

How the results depend on the processing

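The counts of the 37 tested genes called higher or lower stayed within 1.5 times under each alternative but 1. A required change of more than 1.5-fold left 9 genes higher and 2 lower in 1-2 KO against WT, and 7 lower in 1-2 KO against 1-1 KO. Leaving out each library in turn gave 13 to 16 genes higher and 8 to 9 lower in 1-1 KO, 18 to 19 higher and 6 lower in 1-2 KO, and 12 to 13 higher and 11 to 13 lower in 1-2 KO against 1-1 KO. The replicate numbers did not pair the libraries (correlations of deviations between -0.187 and 0.0474), and with a replicate block 14 genes were higher and 8 lower in 1-1 KO, and 18 higher and 6 lower in 1-2 KO, TRIM25 being the gene that lost its call. Subtracting the neighbours' median gave 20 higher and 7 lower in 1-1 KO and 15 higher and 7 lower in 1-2 KO. It reversed the sign of some log2 differences, and only those called before or after the subtraction are listed here. Against WT these were IFNGR1 (0.12), ADAR (0.10) and MX2 (-0.024) in 1-2 KO, and USP18 (0.37) and EIF2AK4 (0.18) in 1-1 KO. Between the knockouts they were MAVS (-0.067), IFNGR1 (0.16), IFITM3 (-0.31), ISG20 (-0.25), USP18 (-0.19) and UBE2L6 (-0.13). The cause was not tested. Scaling by library size alone moved the median of all genes to 0.06 and 0.07 in the comparisons with WT. Genes under about 10 counts per library, such as BST2, STING1 and TLR3 in WT, limit what the depth can show.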
